A study of Homo sapiens with 6 samples.

Results

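Heparan sulfate proteoglycans are proteins that carry long sulfated sugar chains, and 10 genes of this system are described here in Meg-01 cells with and without propionate. The 10 genes are the syndecans SDC1, SDC2, SDC3 and SDC4, the glypicans GPC1 and GPC2, the matrix proteoglycans AGRN and HSPG2, and the chain enzymes EXT1 and NDST1. They were taken by symbol from the deposited count table, where 10 of 58735 Ensembl genes matched. Meg-01 is an established leukaemic megakaryoblast cell line. RNA was sequenced from untreated control cells (n = 3 libraries) and from cells given 500 µM sodium propionate, called C3, for 48 h according to the labels (n = 3 libraries). The methods also name a shorter incubation. Within each group the 3 libraries are described by the study as technical replicates. Every p-value given here therefore measures the spread between these libraries and need not cover the spread between independent cultures.

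The core protein sets where a chain sits. Syndecans span the cell membrane, glypicans are held to it by a lipid anchor, and agrin and perlecan are secreted into the basement membrane. The chain is started on a serine through a short linker, lengthened by the EXT1 and EXT2 complex, and then sulfated, beginning with N-deacetylase/N-sulfotransferases such as NDST1. The finished chains bind growth factors, chemokines and matrix proteins, and in bone marrow they are part of the matrix around megakaryocytes.

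Total counts were 19318595, 18050689 and 16159449 in control replicates 1, 2 and 3, and 16513025, 18652292 and 22821722 in C3 replicates 1, 2 and 3. Normalized counts below are counts scaled to a common library size with TMM factors. A gene is called when edgeR's quasi-likelihood test gave a Benjamini-Hochberg adjusted p below 0.01 over all tested genes and its fold change was above 1.3. Counts of at least 10 in at least 3 libraries were needed for a test, which 15078 genes met. DESeq2, given for comparison, was run on all genes without that minimum unless stated. Its shares then cover 28982 genes, many of them too low for the minimum, so the share after the minimum is given beside them. DESeq2 after the minimum was added with the data already seen.

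The megakaryocyte label was checked against 16 marker genes. Their summed level was 2454, 2469 and 2365 CPM (counts scaled to a fixed library total with TMM factors) in control replicates 1, 2 and 3. In C3 replicates 1, 2 and 3 it was 2362, 2246 and 2263 CPM. TMM factors were 0.966 to 0.985 in the controls and 0.992 to 1.04 in C3, so small differences in CPM depend on them. ITGA2B, the integrin chain of the platelet fibrinogen receptor, was the most abundant at 693 CPM in control and 665 CPM in C3. PF4 and GP1BB were at 0 in every library, and 52.1% and 100% of their exon bases are shared with another gene on the same strand. Of the 14 markers tested, edgeR called 0 higher and 1 lower, GP1BA, beside 5.05% and 1.47% of all tested genes, with 2 higher and 4 lower at an unadjusted p below 0.05, which 16.8% of all tested genes met as higher and 15.3% as lower. DESeq2 and limma-voom each called 0 higher and 2 lower, beside 0.659% and 1.53% of all their tested genes called lower. After the count minimum DESeq2 again called 2 lower, beside 1.42%.

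The genes called higher with C3 all encode core proteins, SDC1 and SDC3 at the cell surface and HSPG2 and AGRN in the matrix. Of the 10 genes, 9 were tested, 4 were called higher and 0 lower, beside 5.05% of all tested genes called higher and 1.47% called lower. The 10 genes were chosen with earlier results of these data known, so these counts are a description. In 5 of the 9, each C3 library was above each control library, and in 0 each was below. Over all tested genes these shares were 17.5% and 16.9%. The 5 were the 4 called genes and SDC4. The median log2 fold change of the 9 was 0.40, with a range from -0.05 to 0.71, against 0.00 over all tested genes. At an unadjusted p below 0.05, edgeR, DESeq2 and limma-voom each gave 5 of the 9 higher and 0 lower, beside 16.8% and 15.3% of all tested genes with edgeR. DESeq2 called 3 of the 9 higher and limma-voom 4, beside 1.94% and 4.84% of all their tested genes. After the count minimum DESeq2 again called 3, beside 4.47%. In RNA from whole cultures, more (or fewer) cells that express a gene and more (or less) of its RNA per cell cannot be told apart.

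**Figure D1:**
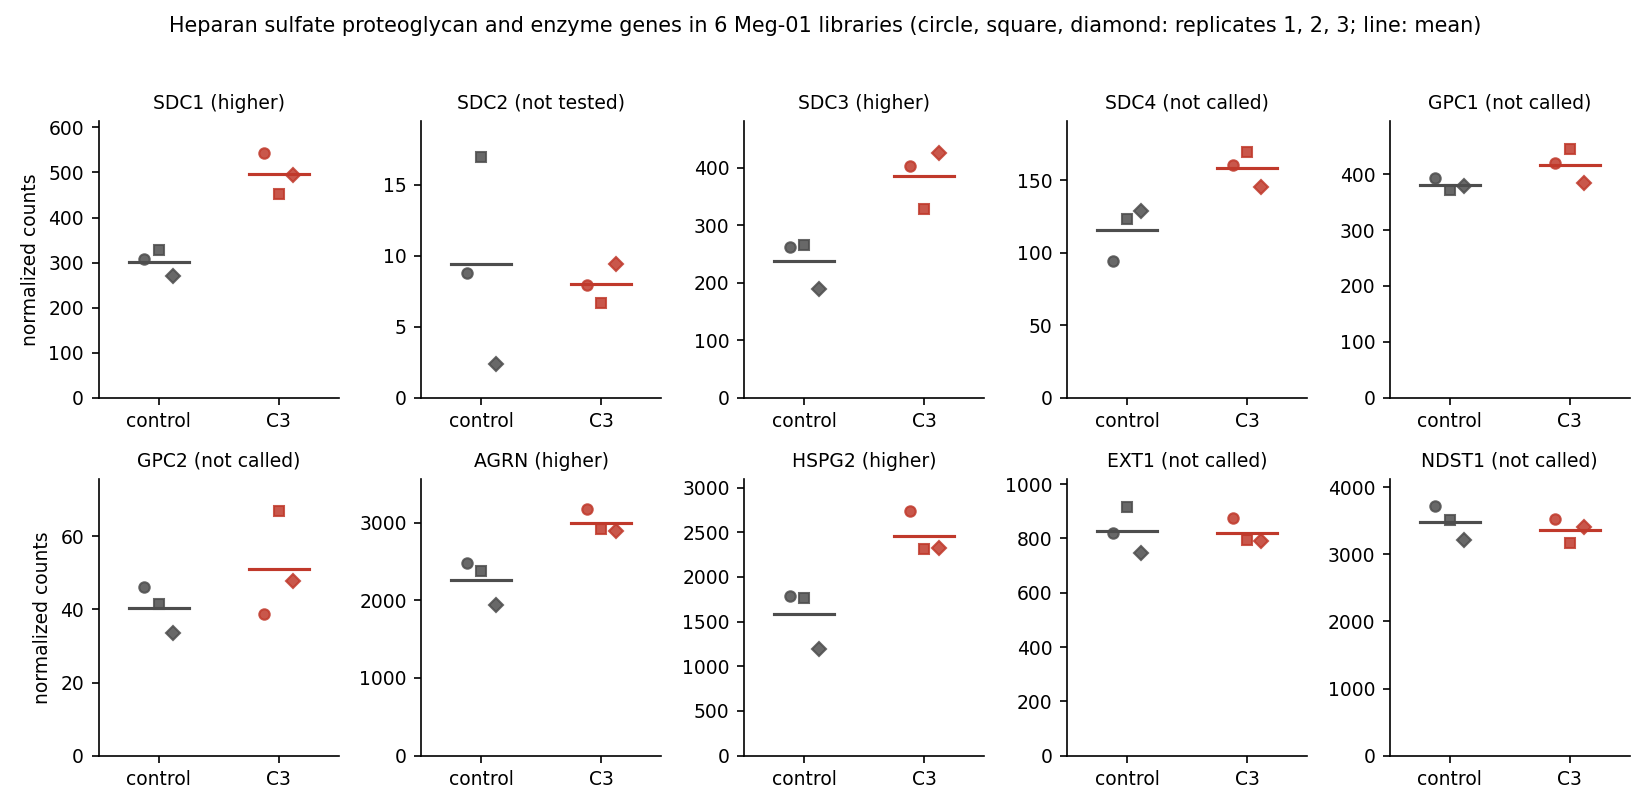
Normalized counts (vertical axes, from 0) of the 10 genes in each of 6 libraries, with control in grey and C3 in red. Circles, squares and diamonds are replicates 1, 2 and 3, and lines are group means. In SDC1, SDC3, SDC4, AGRN and HSPG2 the C3 libraries all lie above the control libraries.

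SDC1, the syndecan best known from epithelia and plasma cells, had the smallest p of the 10 genes. Its normalized counts were 309, 328 and 270 in control replicates 1, 2 and 3. In C3 replicates 1, 2 and 3 they were 544, 453 and 494. The lowest C3 library was well above the highest control, and the groups did not overlap. The log2 fold change was 0.71 (SE 0.096, n = 3 and 3), a 1.64-fold difference, with an edgeR adjusted p of 7.34e-06. By p it ranked 146 among the tested genes.

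SDC3, a large syndecan with a long extracellular stalk, is best known from the nervous system. It had 262, 265 and 189 normalized counts in control replicates 1, 2 and 3, and 403, 327 and 425 in C3 replicates 1, 2 and 3. All C3 libraries were above the controls, and control replicate 3 was the lowest of the 6. The log2 fold change was 0.69 (SE 0.12) with an edgeR adjusted p of 0.000191.

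SDC4, which joins integrins at focal adhesions, gave a smaller and less certain difference. Its normalized counts were 94.0, 123 and 129 in control replicates 1, 2 and 3, and 161, 169 and 145 in C3 replicates 1, 2 and 3. The groups did not overlap, but the test was not passed. The log2 fold change was 0.46 with a 95% interval from 0.16 to 0.76, at an edgeR adjusted p of 0.0256. Under the alternatives tried, its adjusted p was between 0.00737 and 0.149.

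SDC2, a syndecan of mesenchymal cells, was close to the limit of detection. Its raw counts were 9, 16 and 2 in control replicates 1, 2 and 3, and 7, 7 and 12 in C3 replicates 1, 2 and 3. SDC2 did not reach the count minimum and was not tested with it. Without the minimum, its log2 fold change was -0.23 (SE 0.54, edgeR adjusted p 0.857), an error large enough that only a large difference could have been called.

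Neither of the listed glypicans passed the test. GPC1, the glypican most widely expressed in adult tissues, had 372 to 393 normalized counts in the controls and 384 to 446 in C3, and these ranges overlap. Its log2 fold change was 0.13 with a 95% interval from -0.06 to 0.31 (edgeR adjusted p 0.358). The estimate was 0.075 without C3 replicate 2 and 0.041 with a correction for GC content. GPC2, a glypican of the developing nervous system, was low, with 33.4 to 46.0 normalized counts in the controls and 38.7 to 67.0 in C3. Its log2 fold change was 0.34, and the 95% interval from -0.15 to 0.84 is wide enough to hold the changes of SDC1 and HSPG2 (edgeR adjusted p 0.352). Without C3 replicate 2 the estimate for GPC2 was 0.11.

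HSPG2 encodes perlecan, a very large basement membrane protein with chains near its N terminus. Its normalized counts were 1788, 1766 and 1188 in control replicates 1, 2 and 3. In C3 replicates 1, 2 and 3 they were 2732, 2307 and 2318. No C3 library reached down to a control, and control replicate 3 was again the lowest, far under the other controls. The log2 fold change was 0.63 (SE 0.099), a 1.55-fold difference, with an edgeR adjusted p of 5.76e-05. DESeq2's estimate was 0.62 on the log2 scale at an adjusted p of 0.0146, which does not pass 0.01. DESeq2 after the count minimum, added with the data already seen, gave 0.63 at 0.0126, so the call was lost with that tool either way. Over all alternatives for HSPG2 the adjusted p went from 7.35e-20 to 0.0146. Of the exon bases of HSPG2, 11.7% overlap LDLRAD2 on the other strand. The strand and overlap settings of the counting are not given, so how reads there were counted is not known.

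AGRN encodes agrin, known for gathering acetylcholine receptors at the nerve-muscle contact and found in bone marrow matrix. It had 2482, 2377 and 1934 normalized counts in control replicates 1, 2 and 3, and 3171, 2913 and 2898 in C3 replicates 1, 2 and 3. The groups did not overlap. The log2 fold change was 0.40 (SE 0.075) with an edgeR adjusted p of 0.000418, and the 1.32-fold difference was only just above the 1.3-fold limit. That call was lost without control replicate 3 (log2 fold change 0.30), without C3 replicate 1 (0.36) and with a correction for GC content (0.31), each time on the fold limit. Over all alternatives the adjusted p for AGRN went from 3.20e-08 to 0.00332.

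EXT1 and NDST1, which build and sulfate the chains, gave estimates near 0. EXT1, a glycosyltransferase of the polymerising complex, had 745 to 916 normalized counts in the controls and 791 to 876 in C3. Its log2 fold change was -0.015 with a 95% interval from -0.18 to 0.15 (edgeR adjusted p 0.922). NDST1 had 3219 to 3713 normalized counts in the controls and 3162 to 3528 in C3. Its log2 fold change was -0.049 with a 95% interval from -0.18 to 0.087 (edgeR adjusted p 0.660). For both enzymes the interval lies within the 1.3-fold limit in either direction, which is 0.38 on the log2 scale.

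**Figure D2:**
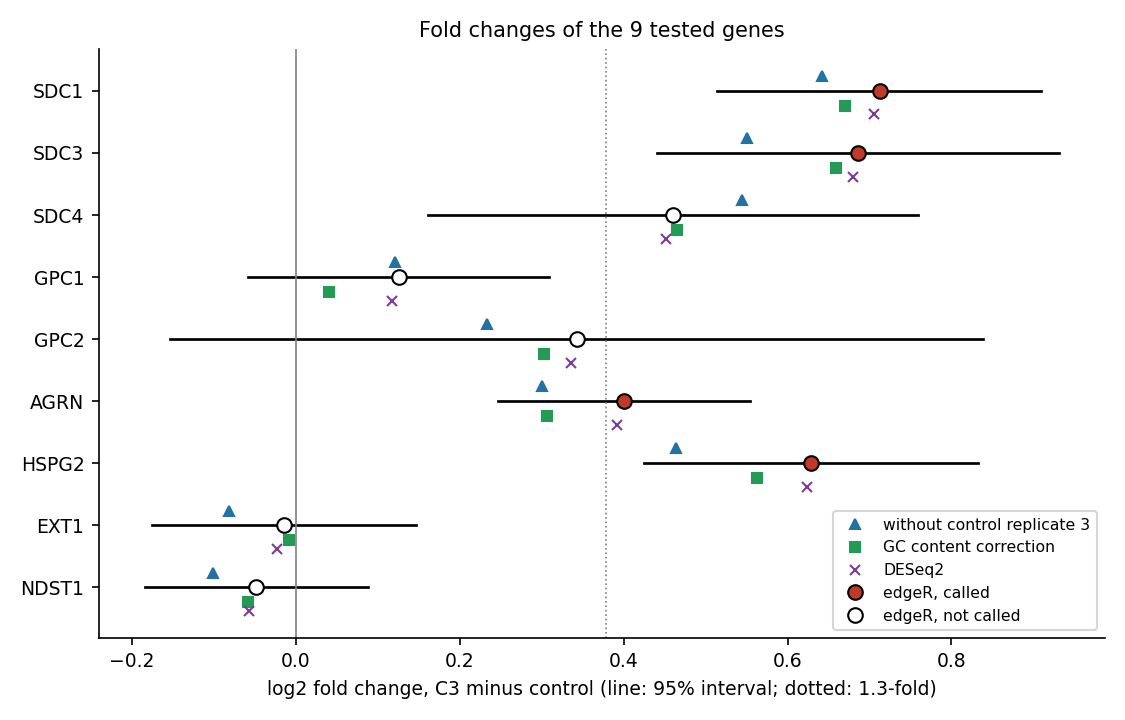
Log2 fold change of C3 over control (horizontal axis) for the 9 tested genes, with edgeR's estimate (circle, red where called) and its 95% interval (line). Triangles, squares and crosses are the estimates without control replicate 3, with a GC content correction and from DESeq2, and the dotted line is 1.3-fold. The AGRN triangle and square fall left of the dotted line, at 0.30 and 0.31.

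Control replicate 3 and C3 replicate 1 stood apart from the rest of their groups, and both differences followed GC content. For control replicate 3, the trend fell with GC content. Among all tested genes with a GC value, the median log2 difference of that library from control replicates 1 and 2 went from 0.10 in the lowest of 5 equal classes of GC content to -0.10 in the highest. The 4 called genes have GC-rich transcripts, at 60.1% for SDC1, 58.7% for SDC3, 64.5% for HSPG2 and 67.9% for AGRN. In control replicate 3 they were lower by more than that trend, with log2 differences of -0.24, -0.48, -0.58 and -0.33 in the same order. Genes that were not called were also lower there, GPC2 by a log2 difference of -0.38 at 61.2% GC, NDST1 by -0.17 at 56.7% GC and EXT1 by -0.22 at 43.6% GC, where the trend has the opposite sign. SDC4, at 48.8% GC, was higher (0.26), and GPC1, at 66.7% GC, was near 0 (-0.015).

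C3 replicate 1 stood apart from the other C3 libraries with the opposite trend. Its median log2 difference from C3 replicates 2 and 3 went from -0.15 in the lowest GC class to 0.12 in the highest. In that library SDC1 was higher than in the other C3 libraries by a log2 difference of 0.20, HSPG2 by 0.24, AGRN by 0.13 and SDC3 by 0.11. EXT1 (0.14) and NDST1 (0.10) were higher too, while GPC2 was lower (-0.55). Between C3 and control, the median log2 fold changes from the lowest GC class to the highest were 0.023, -0.004, -0.012, -0.022 and 0.018.

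Left without control replicate 3, the differences of SDC1, SDC3 and HSPG2 were smaller and still called. Their log2 fold changes were then 0.64, 0.55 and 0.46, with edgeR adjusted p of 0.000175, 0.00260 and 0.000227. With GC correction and without that library, an alternative chosen after the data were seen, they were 0.63, 0.55 and 0.43, and AGRN was at 0.25. Thus 3 of the 9 tested genes were called higher in that setting, beside 692 of 14911 genes. Without control replicate 3 and C3 replicate 1 together, also chosen after the data were seen, the log2 fold changes of SDC1, SDC3, HSPG2 and AGRN were 0.58, 0.53, 0.38 and 0.26. HSPG2 was then just above the 1.3-fold limit, AGRN was below it, and SDC4 was called (0.54, edgeR adjusted p 0.00737). With both libraries left out, 4 of the 9 tested genes were called higher, beside 886 of 14714 genes. EXT1 and NDST1 were at -0.13 each and were not called.

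**Figure D3:**
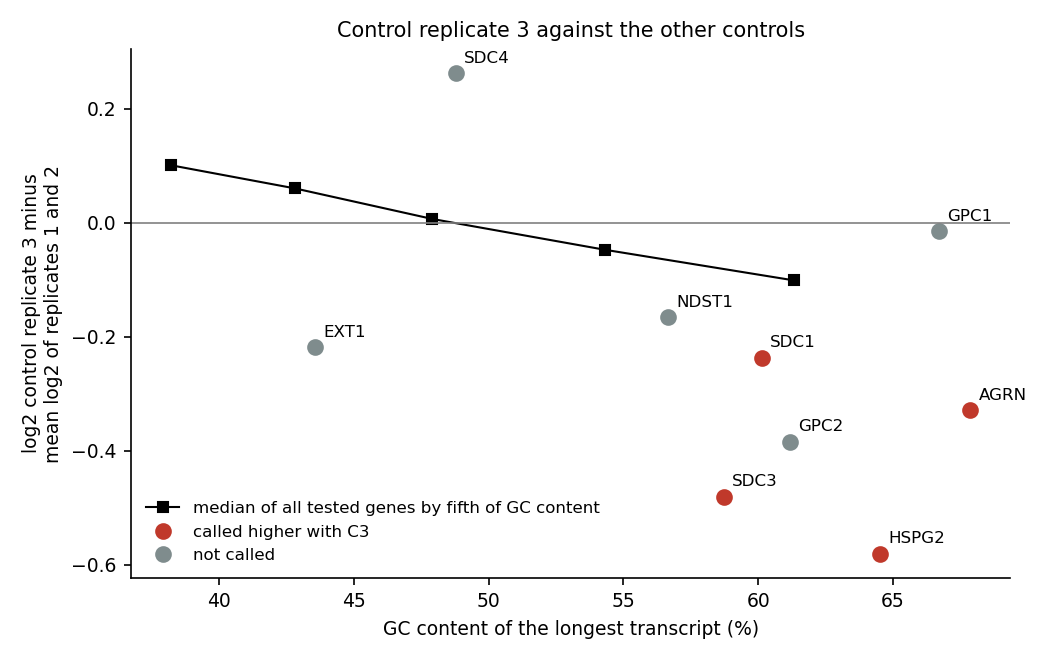
Log2 of control replicate 3 minus the mean log2 of control replicates 1 and 2 (vertical axis) against GC content of the longest transcript (horizontal axis, %). Squares are medians over all tested genes in 5 classes of GC content, and circles are the 9 tested genes, red where called. The squares go from 0.10 down to -0.10, and 7 of the 9 circles lie below the lowest square, among them the called HSPG2 (-0.58) and the uncalled GPC2 (-0.38) and EXT1 (-0.22).

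Levels can be compared between genes only per length, so normalized counts were divided by the kilobases of merged exons. In the controls NDST1 was highest at 366 ± 26.1 counts per kilobase (SD, n = 3), followed by AGRN at 211 ± 27.0. HSPG2 (87.2 ± 18.8), SDC1 (83.6 ± 8.15) and EXT1 (77.0 ± 7.99) came next, and the ranges of neighbours among these overlapped. GPC1 stood at 58.5 ± 1.62, SDC4 at 44.1 ± 7.15 and SDC3 at 33.8 ± 6.11 counts per kilobase, with overlap between SDC4 and SDC3. GPC2 (10.5 ± 1.66) and SDC2 (2.30 ± 1.79) were the lowest.

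With C3 the order of levels was nearly kept, and the group of near-equal genes came apart. SDC1 (138 ± 12.7 counts per kilobase) and HSPG2 (135 ± 13.4) were then side by side above EXT1 (76.4 ± 4.50), without overlap with it. AGRN was at 278 ± 14.3, still under NDST1 at 354 ± 19.7 counts per kilobase. GPC1 (63.9 ± 4.75), SDC4 (60.6 ± 4.71) and SDC3 (54.5 ± 7.25) had overlapping neighbours. With the length of the canonical transcript in place of merged exons, a choice made after the data were seen, NDST1, AGRN and HSPG2 again came first in the controls and SDC1 moved from place 4 to place 6.

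**Figure D4:**
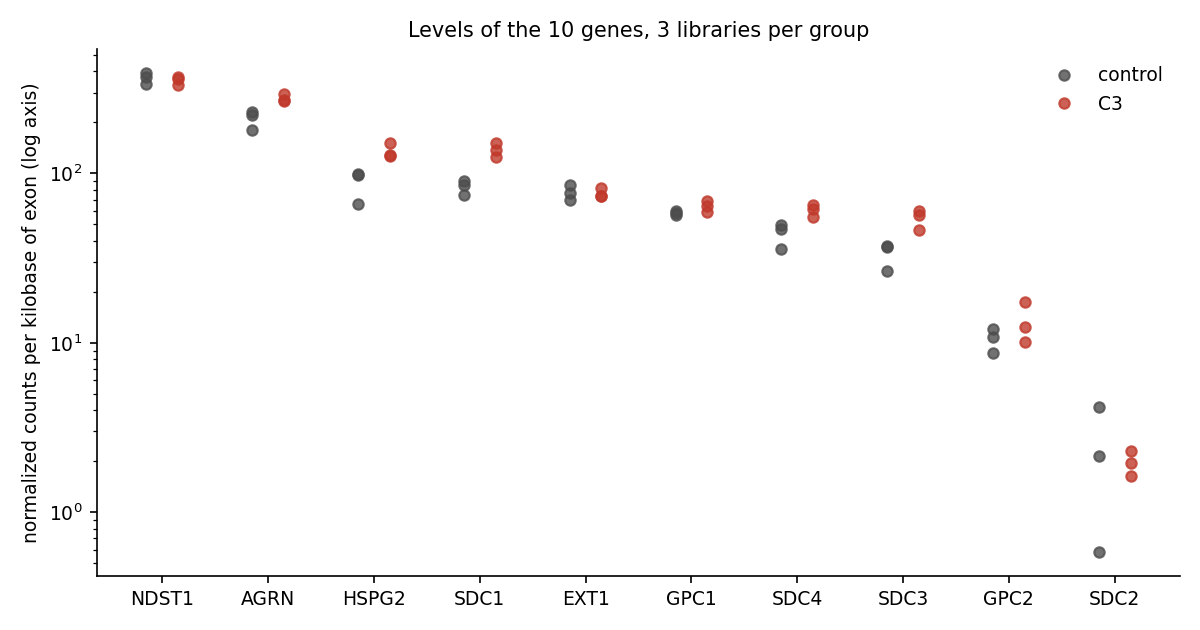
Normalized counts per kilobase of merged exons (vertical log axis) of the 10 genes in each library, ordered by the control mean, with control in grey and C3 in red. NDST1 is highest at a control mean of 366, and SDC2 lowest at 2.30.

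Shares within a library do not depend on its scaling, and all were taken from counts per kilobase of merged exons. SDC1 made up 53.2%, 50.5% and 49.4% of the counts per kilobase of the 4 syndecans in control replicates 1, 2 and 3, and 55.6%, 52.6% and 53.7% in C3 replicates 1, 2 and 3. The groups overlapped, with an exact two-sided permutation p of 0.20, where 0.10 is the smallest value that 3 against 3 libraries allow. Perlecan's share of HSPG2 and AGRN together was 30.0%, 30.6% and 26.7% in control replicates 1, 2 and 3. In C3 replicates 1, 2 and 3 it was 33.9%, 32.0% and 32.2%, and each lay above each control (exact permutation p 0.10). GPC1 made up 83.4 to 87.0% of GPC1 and GPC2 in the controls and 79.7 to 86.5% in C3 (exact permutation p 0.40). The difference in mean share of -1.93 percentage points was between -3.72 (without C3 replicate 1) and -0.319 (without C3 replicate 2) with single libraries left out, and -0.866 without control replicate 3.

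In counts per kilobase of merged exons, the ratio of EXT1 to its partner EXT2 had a mean log2 of -0.74 (SD 0.095, n = 3) in the controls. It was -0.61 (SD 0.023, n = 3) in C3. All C3 values were above the controls (exact permutation p 0.10), although edgeR called neither gene. Without control replicate 3 the difference in means of 0.13 was 0.083. The log2 ratio of NDST1 to NDST2, also per kilobase, was 9.96 in the controls and 8.31 in C3 (exact permutation p 0.10). It rests on NDST2 counts of a few reads per library. Of the NDST2 exon bases, 82.9% are shared with a readthrough gene on the same strand. None of the 5 shares and ratios was below 0.05 after Benjamini-Hochberg adjustment over the 5 permutation tests, and at this group size none could be. The adjusted values were 0.167 for 3 of them, 0.25 for SDC1 and 0.40 for GPC1.

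The 4 called genes lie on 2 chromosomes. AGRN (ENSG00000188157, chr1:1020120-1056118, plus strand), HSPG2 (ENSG00000142798, chr1:21822244-21937310, minus strand) and SDC3 (ENSG00000162512, chr1:30869466-30908758, minus strand) lie on the short arm of chromosome 1 in GRCh38. SDC1 (ENSG00000115884, chr2:20200797-20225433, minus strand) lies on chromosome 2. The RefSeq promoter table (GRCh38.p14, 250 bases before to 50 after the start) matched 7 of the 10 genes, all but AGRN, EXT1 and SDC2. The promoters of SDC1, SDC3 and HSPG2 are shown since these genes were called and kept their call without control replicate 3. They are written 5′ to 3′ on the gene's strand, with each GC box (GGGCGG, or CCGCCC for the other strand) in capitals.
SDC1 (chr2:20225426-20225725, minus strand): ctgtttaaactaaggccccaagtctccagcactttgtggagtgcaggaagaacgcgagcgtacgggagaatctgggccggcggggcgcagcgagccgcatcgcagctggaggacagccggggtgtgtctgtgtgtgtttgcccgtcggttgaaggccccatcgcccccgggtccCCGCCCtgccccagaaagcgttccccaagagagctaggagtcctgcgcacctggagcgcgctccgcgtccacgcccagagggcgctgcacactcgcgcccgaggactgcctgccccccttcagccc
SDC3 (chr1:30908709-30909008, minus strand): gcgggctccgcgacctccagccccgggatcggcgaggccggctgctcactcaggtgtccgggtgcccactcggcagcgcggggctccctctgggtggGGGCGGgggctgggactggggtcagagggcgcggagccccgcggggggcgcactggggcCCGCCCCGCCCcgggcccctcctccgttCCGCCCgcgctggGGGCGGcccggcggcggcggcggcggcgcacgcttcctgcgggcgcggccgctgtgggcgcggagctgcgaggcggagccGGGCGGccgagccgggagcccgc
HSPG2 (chr1:21937261-21937560, minus strand): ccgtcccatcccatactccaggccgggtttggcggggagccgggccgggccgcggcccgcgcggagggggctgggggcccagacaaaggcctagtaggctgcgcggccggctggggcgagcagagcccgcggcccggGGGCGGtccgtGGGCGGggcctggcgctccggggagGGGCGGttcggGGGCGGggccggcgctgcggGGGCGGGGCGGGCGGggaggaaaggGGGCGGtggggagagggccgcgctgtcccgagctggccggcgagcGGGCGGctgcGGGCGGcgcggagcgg

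The 3 windows differ in how many GC boxes they hold. SDC1 has 1 and a GC content of 67.7%, SDC3 has 6 at 84.0%, and HSPG2 has 10 at 83.3%, counting both strands and overlapping matches. The median GC content over all 35116 promoters of this length is 58.7%, and 45.0% of them hold a GC box. All 7 matched genes hold at least 1, including GPC1 with 4, SDC4 with 8 and NDST1 with 1, so the box does not set the called genes apart. The E box CACGTG was in 0 of the 7 and in 7.26% of all promoters, and the TATA box TATAAA (either strand) in 0 of the 7 and in 11.5%. A match is a description of the letters in this window.

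Other genes of the heparan sulfate system were read from lists by role, chosen with earlier results of these data known. Of 58 such genes, 49 were tested, 5 were called higher and 1 lower, beside 5.05% and 1.47% of all tested genes. Their median log2 fold change was -0.04. Given that choice, the counts in these lists are a description. Among 11 tested genes of other core proteins, edgeR, DESeq2 and limma-voom each called 3 higher and 0 lower, and the median was 0.28. Over all their tested genes, 5.05%, 1.94% and 4.84% were called higher. After the count minimum DESeq2 again called 3, beside 4.47%. At an unadjusted p below 0.05 edgeR gave 6 higher and 2 lower of the 11, beside 16.8% and 15.3% of all tested genes. COL18A1, the basement membrane collagen that yields endostatin, had means of 910 normalized counts in control and 1336 in C3, and a log2 fold change of 0.55 (SE 0.068, edgeR adjusted p 2.15e-06). Of its exon bases, 18.5% overlap SLC19A1 on the other strand. GPC4, a glypican, rose by 0.42 on the log2 scale (SE 0.081, edgeR adjusted p 0.000574). TGFBR3, the transforming growth factor beta co-receptor betaglycan, rose by 0.72 (SE 0.16, edgeR adjusted p 0.00177).

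Those glypican and betaglycan calls were lost with some single libraries left out, with estimates close to those from all 6. GPC4 was at 0.37, under the fold limit, without control replicate 3, with adjusted p from 1.51e-05 to 0.00684 over its alternatives. TGFBR3 had log2 fold changes of 0.67, 0.65 and 0.72 and adjusted p of 0.0148, 0.0110 and 0.0109 without control replicate 1, control replicate 3 and C3 replicate 3, within a range from 0.000149 to 0.0148. Without control replicate 3, 3 of the 49 pathway genes were called higher and 2 lower, beside 584 and 194 of 14970 genes, the added lower call being NRP1, a co-receptor that can carry a chain. With all 6 libraries NRP1 had a log2 fold change of -0.37 (edgeR adjusted p 0.00707), just short of the fold limit. NRP1 is named outside the rule for named genes, after its value was seen.

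The enzymes that make the chain gave no call in either direction. Counting EXT1 and NDST1, 20 tested genes of the linker, polymerase and sulfation steps had a median log2 fold change of -0.04. Each of edgeR, DESeq2 and limma-voom called 0 of the 20 higher, beside 5.05%, 1.94% and 4.84% of all their tested genes. They called 0 lower, beside 1.47%, 0.659% and 1.53%, so few calls would be found in a list of this size at those shares. After the count minimum DESeq2 again called 0 in either direction, beside 4.47% higher and 1.42% lower. At an unadjusted p below 0.05 edgeR gave 2 higher and 5 lower, beside 16.8% and 15.3% of all tested genes. These counts moved with the setting, to 4 higher and 1 lower with library size alone and 3 higher and 7 lower with GC correction. They were 1 and 1 without control replicate 1, and 1 and 6 without control replicate 3. Scaled by library size alone, the median of these enzymes was 0.03, beside 0.075 over all tested genes. That scaling shifts all genes alike, so the change of sign says nothing about these enzymes. All 7 linker enzymes overlapped between groups, as 65.6% of all tested genes did, and their median was -0.13. B4GALT7, the galactosyltransferase that adds the first galactose, had the smallest p of them at a log2 fold change of -0.25 (SE 0.086, edgeR adjusted p 0.0390).

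EXT2, the obligate partner of EXT1, had means of 2642 normalized counts in control and 2401 in C3. Its log2 fold change of -0.14 (SE 0.063) did not pass the test (edgeR adjusted p 0.128). HS6ST2, a 6-O-sulfotransferase, had means of 893 in control and 736 in C3. That log2 fold change of -0.28 (SE 0.072) had an edgeR adjusted p of 0.00699 but was under the fold limit. Of the 15 further sulfation and epimerase genes, 8 were tested and 3 were at 0 in every library.

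Supply and breakdown held the remaining calls. PAPSS2, which makes the sulfate donor PAPS, had means of 66.0 normalized counts in control and 135 in C3. It rose by 1.02 on the log2 scale (SE 0.16, edgeR adjusted p 7.71e-05), while 0 of the other 7 precursor genes were called. HPSE, the heparanase that cuts chains outside the cell and in lysosomes, rose by 0.55 (SE 0.11, edgeR adjusted p 0.000853). HGSNAT, the lysosomal acetyltransferase of chain breakdown, fell by 0.59 (SE 0.083, edgeR adjusted p 1.29e-05), from a mean of 720 normalized counts in control to 482 in C3. Among the 12 breakdown and editing genes these were the 1 higher and 1 lower call, and the median log2 fold change of the 12 was -0.13. That median moved with single libraries, to -0.0004 without control replicate 1 (11 genes tested) and -0.19 without control replicate 2. Beside 5.05% and 1.47% of all tested genes, 1 call in lists of 8 and 12 is not far from those shares.

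**Figure D5:**
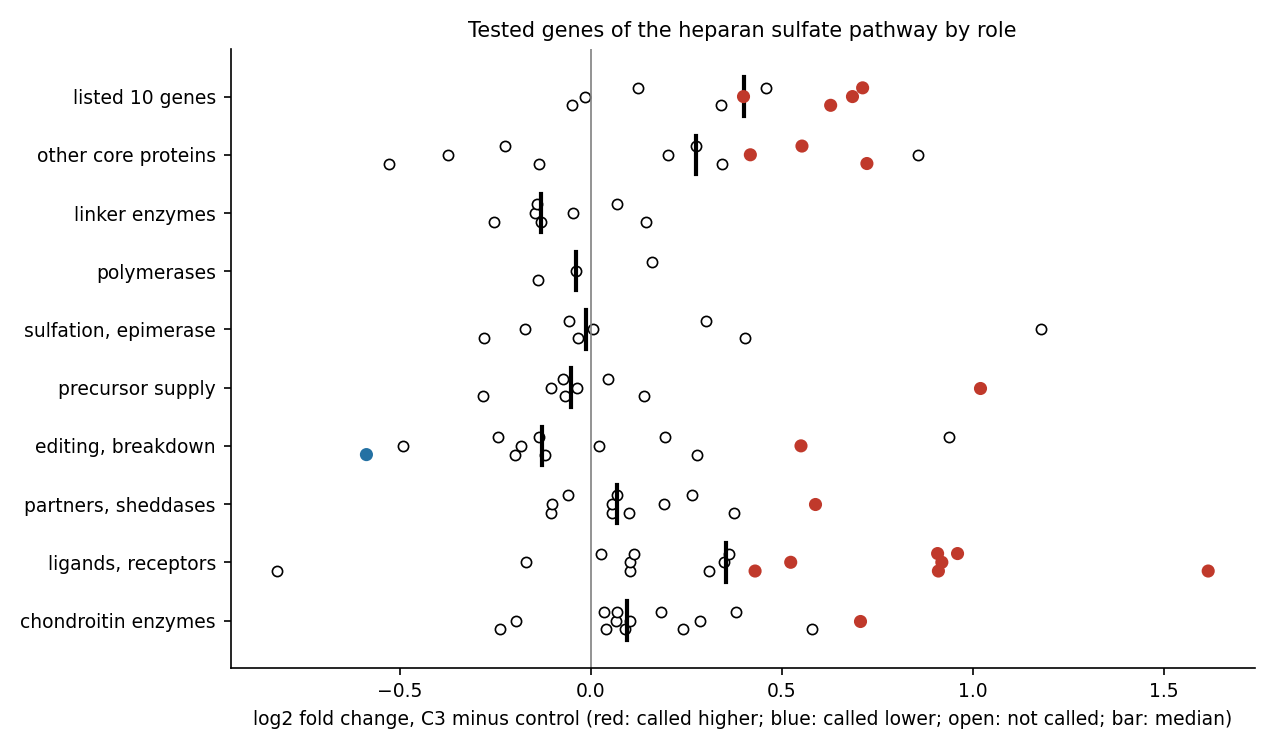
Log2 fold change of C3 over control (horizontal axis) for each tested gene in lists by role, red where called higher, blue where called lower and open where not called. Vertical bars are medians, which lie at 0.40 for the 9 tested genes, 0.28 for other core proteins and -0.13 for linker enzymes. The ligand and receptor list holds 7 red points.

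Another list held genes of proteins that bind the chains or signal with them. It too was chosen with earlier results of these data known, so its counts are a description. Of 16 tested ligand and receptor genes, 7 were called higher and 0 lower, with a median log2 fold change of 0.36, beside 5.05% and 1.47% of all tested genes. DESeq2 and limma-voom each called 6 higher and 0 lower, beside 1.94% and 4.84% of all their tested genes called higher. After the count minimum DESeq2 again called 6 higher, beside 4.47%. At an unadjusted p below 0.05 edgeR gave 10 higher and 1 lower, beside 16.8% and 15.3% of all tested genes. THBS1, the matrix protein thrombospondin 1 of platelet granules, had means of 667 normalized counts in control and 1256 in C3, a log2 fold change of 0.91 (SE 0.073, edgeR adjusted p 2.12e-09). FGFR4 and FGFR1 are fibroblast growth factor receptors, which need the chain as co-receptor. FGFR4 rose by 0.92 (SE 0.078, edgeR adjusted p 4.96e-09) and FGFR1 by 0.43 (SE 0.070, edgeR adjusted p 8.70e-05). Without control replicate 3, FGFR1 was at 0.35 and under the fold limit, with adjusted p from 3.07e-09 to 0.000975 over its alternatives. LRP4, the receptor that agrin binds at the nerve-muscle contact, rose by 0.52 (SE 0.095, edgeR adjusted p 0.000294). The other called genes of this list were FGF2, FGFR3 and PDGFA, beyond the 4 with the smallest p.

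Syndecan partners and sheddases, and chondroitin sulfate enzymes, held 1 higher call each and 0 lower with edgeR, DESeq2 and limma-voom alike. Over all their tested genes, edgeR called 5.05% higher, DESeq2 1.94% (4.47% after the count minimum) and limma-voom 4.84%. In lists of this size, 1 call is not far from those shares. NOTUM, an esterase that inactivates Wnt proteins, rose by 0.59 (SE 0.10, edgeR adjusted p 0.000175), and it was the only call among 11 tested partners and sheddases. CHST15, a chondroitin sulfotransferase, rose by 0.71 (SE 0.15, edgeR adjusted p 0.00142) among 14 tested genes. Its call was lost without control replicate 2 (0.58, adjusted p 0.0186) and without C3 replicate 3 (0.61, adjusted p 0.0206), within a range from 4.65e-05 to 0.0206. For these lists edgeR's count at an unadjusted p below 0.05 was 3 higher and 0 lower for the partners and 5 higher and 2 lower for the chondroitin genes, beside 16.8% and 15.3% of all tested genes.

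Outside these lists, the genes most like SDC1 over the 6 libraries were sought among 11746 genes by the root mean square difference of centred log2 normalized counts. That measure includes the difference between the groups, so a rise like that of SDC1 is fixed by the choice and is given as a description. NTN1 came first (0.040), followed by HAGLR (0.042) and GRIK3 (0.046). NTN1 had means of 1091 normalized counts in control and 1763 in C3 (log2 fold change 0.69), and GRIK3 had 591 and 942 (0.67). HAGLR, a long noncoding RNA with a mean of 41.6 normalized counts in control and 65.9 in C3, had a log2 fold change of 0.66 (SE 0.21) and was not called, with an edgeR adjusted p of 0.0263 and values from 0.0146 to 0.0978 over its alternatives.

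Markers of other cell types were summed in each library only as a check of the cell line's label. The 6 endothelial markers summed to 332, 337 and 334 CPM in control replicates 1, 2 and 3. In C3 replicates 1, 2 and 3 the sum was 399, 362 and 362 CPM. Most of it came from ESAM, at 255 CPM in control and 270 CPM in C3. Of 5 endothelial markers tested, 1 was called higher, TEK, and 0 lower, beside 5.05% and 1.47% of all tested genes. In 4 of the 5, each C3 library was above each control library, as in 17.5% of all tested genes. CDH5 among them met the count minimum only with C3 libraries. The median log2 fold change of the 5 was 0.37. The 7 fibroblast markers summed to 37.1, 37.9 and 45.7 CPM in the controls and to 29.0, 27.4 and 27.3 CPM in C3. Most of that sum came from LUM, which was called lower. Of the 4 fibroblast markers tested, 3 had a positive log2 fold change and 1 a negative one, with a median of 0.58. COL1A1 and DCN, both positive, met the count minimum only with C3 libraries, so that count and median are partly set by the minimum. COL3A1 and LUM met it in the controls alone, with log2 fold changes of 0.32 and -0.66. COL1A1 was called higher at a few counts, with raw counts of 6, 5 and 2 in control replicates 1, 2 and 3. In C3 replicates 1, 2 and 3 they were 12, 11 and 34, so the gene met the count minimum only through C3. Its call is given as a description. It was kept in 5 of the 13 alternatives that gave the gene a value, with adjusted p from 0.00443 to 0.0431. DESeq2, limma-voom and leaving out each control library were among those that lost it. The log2 fold change was between 1.61 and 2.14 over the 13. No marker of these 2 lists was at 0 in every library.

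The 6 monocyte markers summed to 43.3, 40.5 and 34.8 CPM in control replicates 1, 2 and 3 and to 56.7, 51.9 and 53.5 CPM in C3 replicates 1, 2 and 3. ITGAM, the most abundant, was called higher, and FCGR3A was at 0. Without control replicate 3, ITGAM had a log2 fold change of 0.38, just under the fold limit, and was not called. The 7 epithelial markers summed to between 9.10 and 12.2 CPM in every library, mostly from EPCAM, with KRT5, KRT14 and KRT19 at 0. The 7 T and B cell markers summed to between 4.89 and 6.66 CPM, mostly from CD79A, with MS4A1 at 0. The part of these cell type markers in the proteoglycan changes was not tested.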

How the data were processed

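RNA was sequenced from 6 Meg-01 libraries, 3 untreated and 3 with C3, and grouped by their titles. According to the submitters' processing notes, the authors trimmed reads with fastp, mapped them to GRCh38 with STAR 2.6.1d and counted them with featureCounts 1.5.0-p3, and the deposited values are raw counts per Ensembl gene. Genes reaching 10 counts in 3 or more libraries were scaled with TMM factors and compared with edgeR 4.0.16 (quasi-likelihood F test, R 4.3.3), with Benjamini-Hochberg adjustment over 15078 genes and without a replicate block. Calls needed an adjusted p below 0.01 and a fold above 1.3. Normalized counts are each library's counts brought to the mean effective library size. Shares were compared by exact two-sided permutation.

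Symbols, exon lengths and GC content came from GENCODE on GRCh38, where 58207 of the 58735 identifiers had coordinates. The members and lists were chosen with earlier results of these data known. Named genes are the 10 members, up to 4 called genes with the smallest p in each list (or the 1 with the smallest p where none was called) and the 3 genes most like the member with the smallest p. Alternatives were DESeq2 1.42.0 on all genes, limma-voom (limma 3.58.1), RLE factors, library size alone, no filter, a mean count of at least 50, a replicate block, GC correction (loess span 0.3, pseudocount 0.5) with and without the block, each library left out, and an adjusted p below 0.05 without a fold limit. For shares, raw counts and each library left out were the alternatives. Added with the data already seen were GC correction without control replicate 3, leaving out control replicate 3 and C3 replicate 1 together, DESeq2 after the count filter, and canonical transcript lengths. The fits were tested on simulated data.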

Additional observations from a re-analysis of the deposited data

How the results depend on the processing

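SDC1 and SDC3 kept their direction and call under every alternative tried, with log2 fold changes from 0.58 to 0.79 and from 0.53 to 0.79. HSPG2 kept its direction, from 0.38 to 0.74, and its call except with DESeq2 on all genes (adjusted p 0.0146) and after the count filter (0.0126), and AGRN kept its direction, from 0.25 to 0.48, but 6 of its 18 alternatives were under the fold limit. GPC2 had no value at a mean count of at least 50. Members called higher went from 3 to 4 and members called lower stayed at 0 with single libraries left out.

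Counts over all genes moved more. With library size alone, 1025 genes were called higher and 100 lower, 91.1% higher against 77.4% with TMM factors. With an adjusted p below 0.05 and no fold limit, 1658 were called higher and 1323 lower, and 9 pathway genes higher and 6 lower. With single libraries left out, genes called higher ran from 516 to 766 and lower from 129 (without C3 replicate 3) to 340 (without C3 replicate 1), and pathway genes higher from 3 to 5 and lower from 1 to 2. GC correction without control replicate 3 gave 2 pathway genes lower. Without control replicate 3 and C3 replicate 1 together, 886 of 14714 genes were called higher and 396 lower, and SDC4 was called higher. The cause of these moves was not tested.

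The labels do not state that replicate numbers pair libraries. Same-number correlations of deviations from the group mean were 0.0209, -0.0468 and 0.0296, and those between different numbers ran from -0.0766 to 0.0641. With 3 libraries per group these values cannot decide whether libraries were paired. With the replicate block, 909 genes were called higher and 268 lower, 4 members higher and 0 lower, and with GC correction and the replicate block 768 and 287, 3 members higher and 0 lower. SDC2 and NDST2 had fewer than 20 counts in each library.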
